A study of Mus musculus with 4 samples.

Results

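The genes described here are 53 mouse genes of the TGF-beta, BMP and activin pathway, taken by name from the 55291 gene symbols counted in pancreas RNA. They were matched by gene symbol and comprise TGF-beta ligands and receptors, BMPs and their receptors, GDFs, activin and inhibin subunits, activin receptors, Smads, latent TGF-beta binding proteins and Tgfbi. The data are RNA sequencing counts of 4 pancreas libraries, 2 labelled control and 2 labelled knockout. Mice of both groups carried the Pdx1-Cre transgene, which is active in progenitors of acinar, duct and islet cells and not in fibroblasts, fat or immune cells. Control mice carried 1 floxed and 1 normal copy of poh1 (Pdx1-Cre+, poh1f/+), and knockout mice had both copies floxed (Pdx1-Cre+, poh1f/f). Poh1 is now named Psmd14 and encodes the deubiquitinase of the proteasome lid. The sources used here do not give age, sex or the number of animals behind each library, so p-values measure only the spread between these libraries, which may be technical.

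Ligands of this family are secreted dimers that bind a pair of type II and a pair of type I receptor kinases. The active type I receptor phosphorylates receptor-activated Smads, which join Smad4 and enter the nucleus. TGF-beta and activin mostly use Smad2 and Smad3, and BMPs use Smad1, Smad5 and Smad9, whereas Smad6 and Smad7 inhibit the pathway. TGF-beta is secreted in a latent complex that is stored in the matrix. In the pancreas it is known for driving stellate cells and fibroblasts to deposit collagen.

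Total counts per library ranged from 22875618 to 27849730, and levels are given as CPM, counts per 1000000 after TMM scaling, in which 1 count was worth 0.0342 to 0.0455 CPM. Psmd14, the targeted gene, was at 61.6 and 52.9 CPM in the control libraries and at 65.9 and 65.2 CPM in the libraries labelled knockout (log2 fold change 0.20 ± 0.11, adjusted p by edgeR = 0.259). It was thus not lower under the knockout label, so the comparisons below are between libraries as labelled. Acinar markers summed to 2344 to 10314 CPM in controls and to 215 to 627 CPM in the libraries labelled knockout, where Amy2a5 had no count. Summed lymphocyte markers went from 43.8 to 66.3 CPM up to 1023 to 1054 CPM (10 of 10 higher) and adipocyte markers from 396 to 831 CPM up to 2830 to 3691 CPM (7 of 8 higher). Fibroblast markers summed to 4563 to 5288 CPM in controls and 3176 to 3988 CPM in the libraries labelled knockout (2 of 8 lower), and duct markers to 2467 to 3007 and 766 to 818 CPM (7 of 8 lower). Intestinal epithelial markers summed to 421 CPM in knockout replicate 2 and to 36.2 to 56.9 CPM in the other libraries. The part of these differences in the results below was not tested, except for the values given relative to marker sums. In bulk tissue, fewer cells of a type and less RNA per cell cannot be told apart.

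Of the 53 genes, 45 had enough counts to be tested, and 9 of these were lower and 4 higher in the libraries labelled knockout (adjusted p by edgeR under 0.05). The genes that fell were the ligands Tgfb2 and Tgfb3, the inhibin subunit Inha, the binding protein Ltbp3, the type I receptors Tgfbr1, Acvr1 and Bmpr1a, the procollagen proteinase Bmp1 and the matrix protein Tgfbi. Those that rose were the ligands Bmp2 and Bmp4, the type I receptor Acvr1c and the co-receptor Tgfbr3. No Smad and no type II receptor was called. Calls made up 28.9% of tested members against 22.1% of all 19134 genes tested. Lower calls were 20% of members against 9.95% of all genes, and higher calls 8.89% against 12.1%. The median log2 fold change was −0.21 over the tested members and 0.00 over all genes. Among all genes 2320 were higher and 1904 lower, a split that became 2827 and 1527 without scaling beyond the library total. In 21 of the 45 tested members both libraries labelled knockout lay below both controls, in 9 they lay above, and in 15 the groups overlapped. Over all tested genes these shares were 33.7%, 34.4% and 31.9%, against 46.7%, 20% and 33.3% here.

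**Figure D1:**
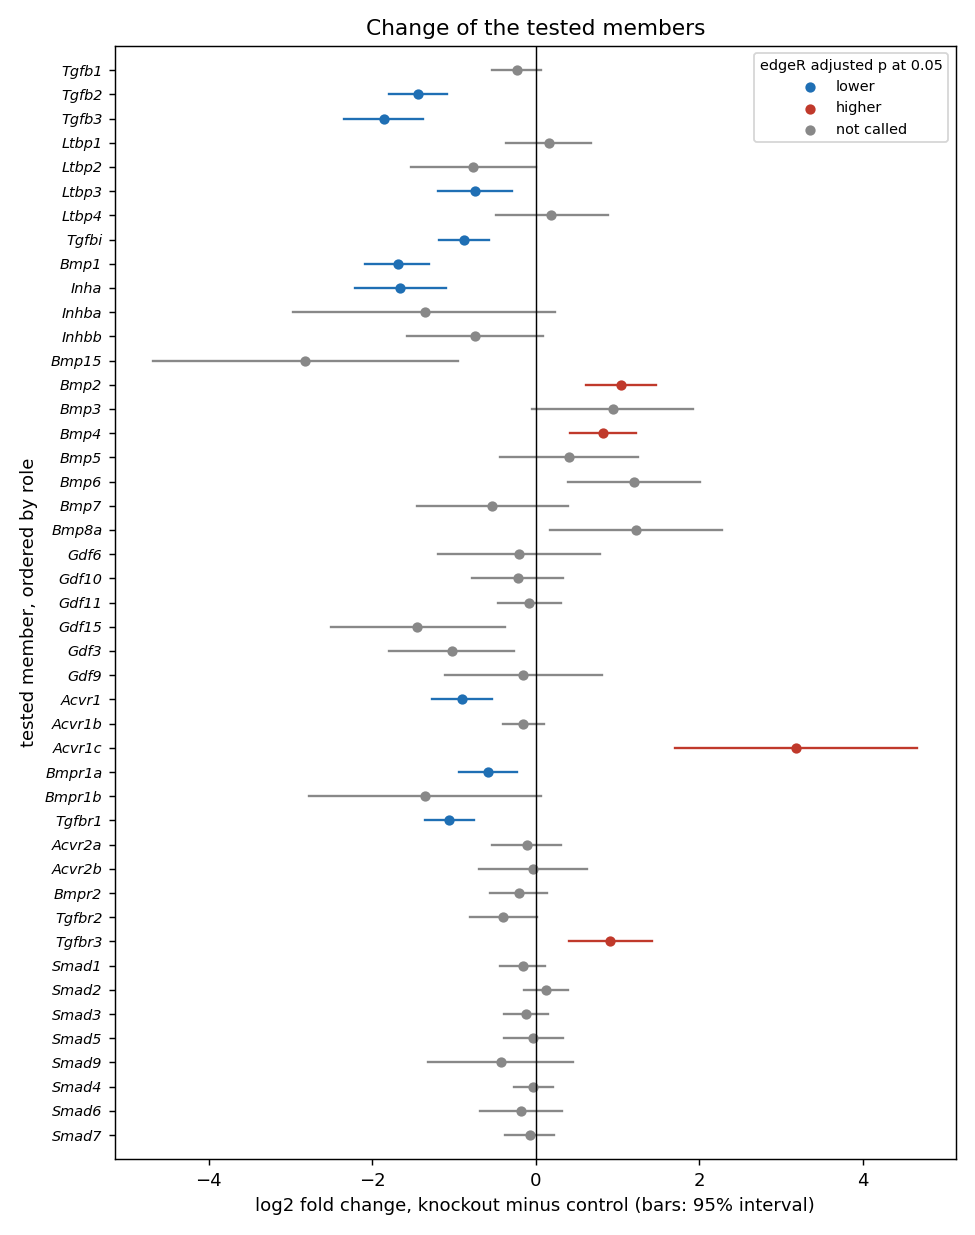
Log2 fold change of the 45 tested members, knockout label minus control, with 95% intervals from the edgeR fit, ordered by role. The 9 genes called lower are blue, the 4 called higher are red, and the intervals of the Smads at the bottom and of the type II receptors all include 0, with Smad9 at −0.43 and Tgfbr2 at −0.40.

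Per kilobase of exon, Tgfbi had the highest mean level of all members over the 4 libraries, at 99.4 CPM per kilobase. It was followed by the receptor Tgfbr2 at 70.1 and by Tgfb3 at 68.4 CPM per kilobase. Bmp1 at 48.9 and Ltbp4 at 44.7 came next. The order among them depended on the label: Tgfb3 was at 95 and 119 CPM per kilobase in controls, above Tgfbr2 at 70.9 and 88.5, and at 33.1 and 26.1 in the libraries labelled knockout, below Tgfbr2 at 62.9 and 58.1. Inhbc, Bmp10 and Gdf1 had no count in any library. For Gdf1 this says little, because all of its 1349 exon bases also lie in Cers1. Whether reads there were given to 1 of the genes or left out is not known. The other members with too few counts for a test were Inhbe, Bmp8b, Gdf2, Gdf5 and Gdf7, each under 1 CPM in every library.

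**Figure D2:**
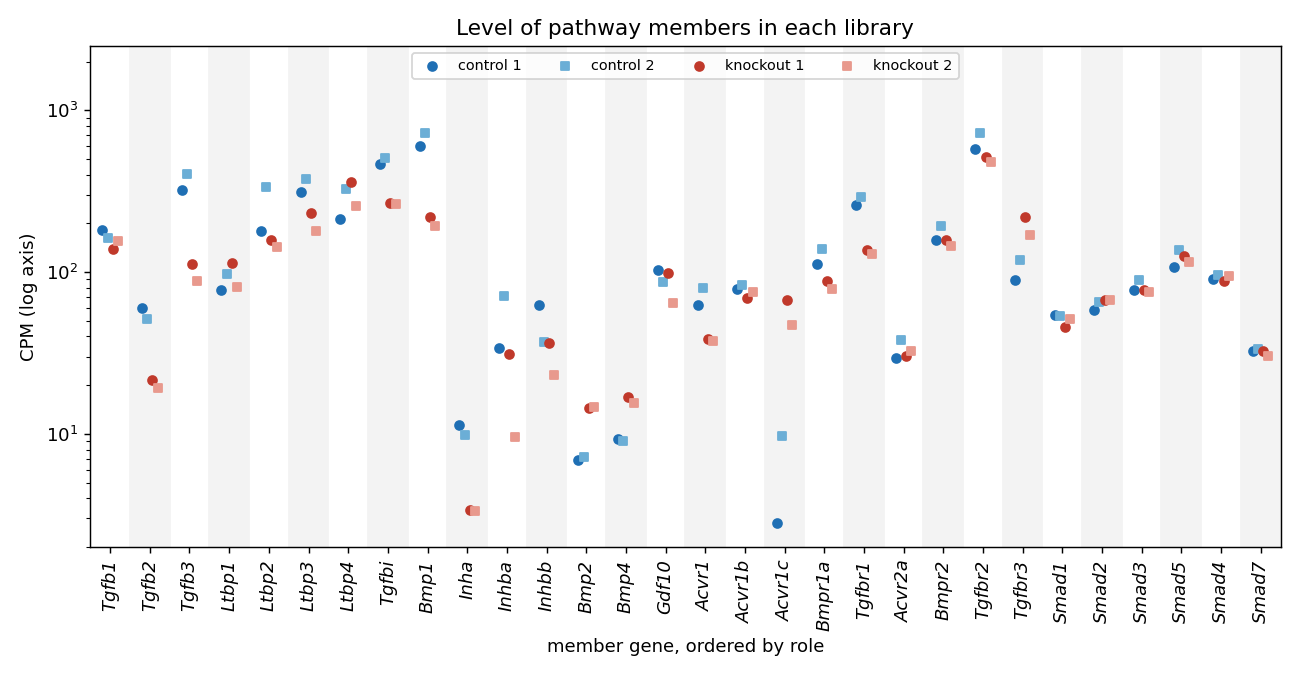
CPM on a log axis in each library for the 30 members that were called or had a mean of at least 20 CPM, ordered by role. Blue symbols are control libraries and red symbols libraries labelled knockout, with circles for replicate 1 and squares for replicate 2. Tgfb2, Tgfb3, Bmp1, Tgfbi and Tgfbr1 show both red symbols below both blue ones, and Bmp2, Bmp4, Acvr1c and Tgfbr3 the reverse.

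The TGF-beta isoforms, closely related ligands made from separate genes, gave 2 lower calls among 3, against 9.95% over all genes. Tgfb3 (chromosome 12, 86056745 to 86079041, GRCm38) was at 321 and 404 CPM in controls and at 112 and 88.2 CPM in the libraries labelled knockout. Means differed 3.62-fold, and the groups were far apart (log2 fold change −1.86 ± 0.19, adjusted p by edgeR = 0.00589). Tgfb2 (chromosome 1, 186622792 to 186705989) was at 59.8 and 51.5 CPM in controls and 21.6 and 19.3 CPM under the knockout label. It fell by 1.44 ± 0.14 on the log2 scale (adjusted p by edgeR = 0.00517), and its replicates differed little. Tgfb1, the isoform that immune cells also make in quantity, was at 183 and 163 CPM in controls and 139 and 155 CPM in the libraries labelled knockout. Although both of the latter were lower, Tgfb1 did not pass the test (−0.23, 95% interval −0.54 to 0.07, adjusted p by edgeR = 0.219). The intervals of Tgfb1 and Tgfb3 do not overlap, and a test of the difference between the genes was not made.

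The makeup of the TGF-beta message in each library is given next. Of the summed CPM per kilobase of the isoforms, Tgfb3 held 67.1% and 74.3% in the control libraries and 51.4% and 43.3% in those labelled knockout. Tgfb1 held 25.7% and 20.1% in controls and 42.8% and 51.1% in the others. Tgfb2 stayed the smallest part in every library, from 5.53% to 7.29%. These shares do not depend on the scaling of the libraries. With 2 libraries against 2, the smallest p an exact two-sided permutation test can give is 0.333, so no p is given for them.

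**Figure D3:**
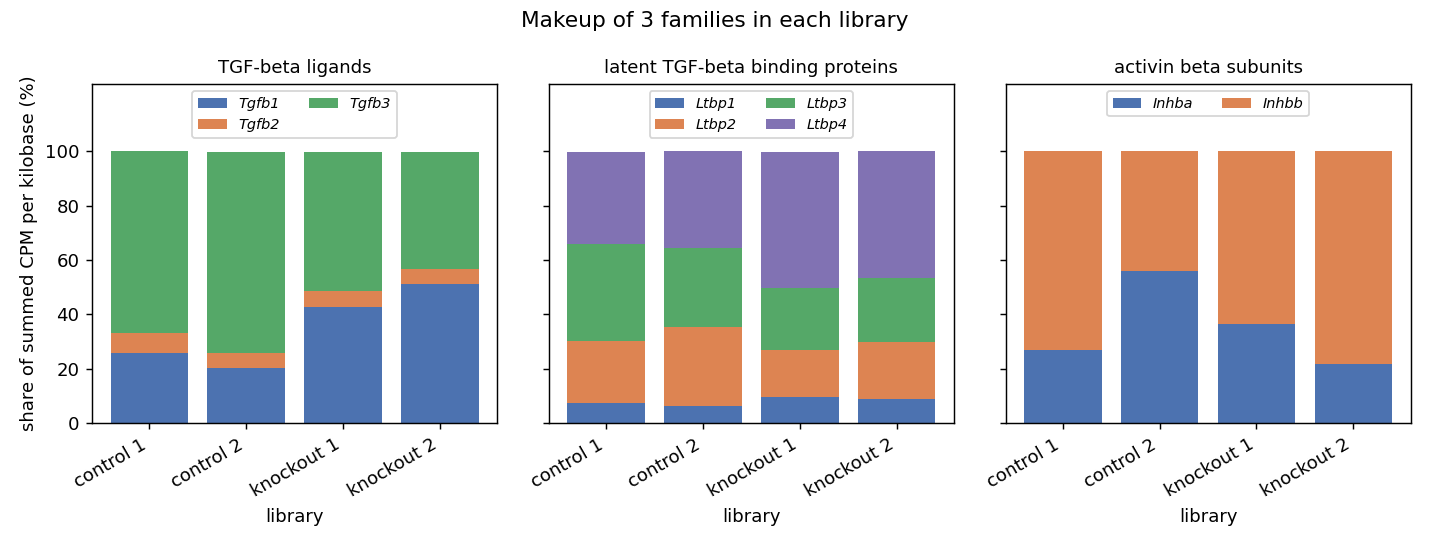
Stacked bars of the share of each gene in the summed CPM per kilobase of its family, in percent, for each library. In the left panel the Tgfb3 share is 67.1% and 74.3% in controls and 51.4% and 43.3% in the libraries labelled knockout; in the right panel the Inhba share is highest in control replicate 2, at 56%.

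The upstream sequence of 2 members is shown because both fell and each held at least 2 kinds of the motifs searched within a single window. RefSeq start sites (GRCm38.p6) were matched by symbol for 40 of the 53 members and 9 of the 13 called ones; Bmp1, Bmp2, Tgfb3 and Tgfbr3 had no entry. In the 250 bases before each start site, both strands were searched for CAGAC, the core of the Smad-binding element, the palindrome GTCTAGAC, GGCGCC, a GC-rich sequence that BMP Smads can bind, the AP-1 sequence TGANTCA and the TATA box TATAAA. Capitals mark the matches. The Tgfb2 stretch is chr1:186705990-186706239, minus strand, and the Tgfbi stretch is chr13:56609336-56609522, plus strand, which stops where the GENCODE gene begins.
Tgfb2: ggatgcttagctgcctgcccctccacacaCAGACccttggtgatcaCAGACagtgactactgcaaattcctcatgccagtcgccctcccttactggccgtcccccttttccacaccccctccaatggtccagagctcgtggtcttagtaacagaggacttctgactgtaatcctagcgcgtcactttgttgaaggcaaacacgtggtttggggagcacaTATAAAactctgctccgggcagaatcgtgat
Tgfbi: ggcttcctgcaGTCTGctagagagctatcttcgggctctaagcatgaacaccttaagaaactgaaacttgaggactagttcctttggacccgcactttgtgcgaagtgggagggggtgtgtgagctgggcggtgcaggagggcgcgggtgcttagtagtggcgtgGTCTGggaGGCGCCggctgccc

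In Tgfb2 the TATA box begins 31 bases before the start site and the CAGAC matches begin 221 and 204 bases before it. In Tgfbi CAGAC matches on the minus strand, read as GTCTG above, begin 239 and 85 bases before the RefSeq start site. GGCGCC begins 77 bases before it. That start site lies past the end of the printed Tgfbi stretch, since the window searched ran to base 56609585. CAGAC is common, present in 42.2% of all 32851 windows and in 5 of the 8 windows of members called lower (62.5%). GGCGCC was in 9.59% of all windows and in 3 of those 8, belonging to Bmpr1a, Tgfbi and Tgfbr1. TATAAA was in 12.4% of all windows and, among members called lower, in that of Tgfb2. GTCTAGAC (0.167% of all windows) and TGANTCA (6.75%) were in none of the 51 windows of members. Such matches describe letters only and say nothing about binding.

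Latent TGF-beta binding proteins, some of which anchor the latent ligand to matrix fibres, were mixed. Ltbp3 was at 313 and 375 CPM in controls and at 231 and 180 CPM in the libraries labelled knockout, which did not overlap with them (−0.74 ± 0.18, adjusted p by edgeR = 0.0408). Per 100 CPM of summed fibroblast markers Ltbp3 was at 6.86 and 7.09 in controls against 5.79 and 5.67. Per 100 CPM of duct markers it was higher under the knockout label, at 10.4 and 15.2 against 30.2 and 22. The groups overlapped per macrophage, smooth muscle or mesothelium marker. Ltbp3 no longer passed when either control or knockout replicate 2 was removed, or when the replicate number was a block (adjusted p by edgeR = 0.0854, 0.111, 0.171 and 0.0698). Ltbp2 was at 180 and 334 CPM in controls and 159 and 143 CPM in the others and did not pass (−0.77, 95% interval −1.53 to 0.00, adjusted p by edgeR = 0.128); control replicate 2 stood well above the rest. Ltbp2 passed as lower with DESeq2 (adjusted p = 0.0356) and, by edgeR, without control replicate 1 (−1.14, adjusted p = 0.0361). For Ltbp1 (77.3 and 96.8 CPM in controls, 114 and 80.7 CPM under the knockout label) the groups overlapped. They also overlapped for Ltbp4, at 214 and 326 CPM in controls and 362 and 255 CPM in the others. Neither passed the test (adjusted p by edgeR = 0.612 and 0.64).

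Bmp1 and Tgfbi, which are neither ligands, receptors nor Smads, were among the most abundant members and both fell. Bmp1 is a metalloproteinase that trims procollagens and, despite its name, is no ligand. Its level was 606 and 719 CPM in controls and 218 and 193 CPM in the libraries labelled knockout, a 3.23-fold difference of means (−1.69 ± 0.16, adjusted p by edgeR = 0.00475). Tgfbi encodes a secreted adhesion protein first found as a TGF-beta-induced gene. It was at 466 and 504 CPM in controls and at 266 and 263 CPM in the others (−0.88 ± 0.12, adjusted p by edgeR = 0.0116). For both genes the gap between groups was larger than the spread within either. Macrophage markers moved the same way, with sums of 4414 and 3894 CPM in controls and 2734 and 2573 CPM in the libraries labelled knockout, 6 of 8 lower and none at 0. Per 100 CPM of them, Tgfbi was at 10.6 and 12.9 in controls and at 9.73 and 10.2 in the others, a much smaller gap than in CPM. Bmp1 was at 13.7 and 18.5 against 7.97 and 7.5 on that base. Per 100 CPM of fibroblast markers, Tgfbi was at 10.2 and 9.53 in controls and at 6.67 and 8.28 in the libraries labelled knockout. Per 100 CPM of duct markers, Tgfbi was higher under the knockout label, at 15.5 and 20.4 against 34.7 and 32.2. Its groups overlapped on the smooth muscle and mesothelium bases, so the direction depends on the base.

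Of the activin and inhibin subunits 3 of 5 could be tested, and 1 was called lower (9.95% over all genes). Inha, the alpha subunit that turns activin into its antagonist inhibin, was at 11.4 and 9.83 CPM in controls and 3.37 and 3.35 CPM in the libraries labelled knockout (−1.66 ± 0.22, adjusted p by edgeR = 0.0102); without control replicate 1 it did not pass (adjusted p by edgeR = 0.0622). Inhba, the beta A subunit of activin A, was at 34.1 and 70.9 CPM in controls and 31.3 and 9.55 CPM in the others. Its libraries differed widely within each group and it did not pass (−1.36 ± 0.63, adjusted p by edgeR = 0.18). Leaving out knockout replicate 1 gave a log2 fold change of −2.46 (adjusted p by edgeR = 8.06e-05), and leaving out control replicate 2 or knockout replicate 2 gave −0.74. Inhbb, the beta B subunit, was at 62.3 and 37.1 CPM in controls and 36.3 and 23 CPM under the knockout label (−0.74 ± 0.33, adjusted p by edgeR = 0.164). Inhbb passed without knockout replicate 1 (−1.12, adjusted p by edgeR = 0.00923) and under a replicate block (adjusted p by edgeR = 0.0256). Inhbe had 0 counts in controls and 4 and 2 counts in the libraries labelled knockout.

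BMP ligands were at low levels and, where called, higher. Bmp2 was at 6.91 and 7.24 CPM in controls and at 14.5 and 14.6 CPM in the libraries labelled knockout, a 2.06-fold difference with almost no spread within groups (1.04 ± 0.17, adjusted p by edgeR = 0.0165). Bmp4 was at 9.23 and 9.08 CPM in controls and 16.8 and 15.5 CPM in the others (0.82 ± 0.16, adjusted p by edgeR = 0.025). Both are ligands of Bmpr1a with Bmpr2. Their calls were lost when either control library was left out (adjusted p by edgeR from 0.052 to 0.0886), and that of Bmp4 also without knockout replicate 1 (0.0774), while the log2 fold changes stayed between 1.01 and 1.14 for Bmp2 and 0.76 and 0.92 for Bmp4 under every alternative run. Of the 9 BMP ligands tested, 2 were called higher and 0 lower (12.1% and 9.95% over all genes), with a median log2 fold change of 0.82. Unadjusted p values by edgeR were 0.0122 for Bmp6, 0.0292 for Bmp8a and 0.0114 for Bmp15, which did not pass. Bmp15, at most 1.38 CPM in any library, was nearest to the threshold (−2.82 ± 0.73, adjusted p by edgeR = 0.0509) and was called lower by DESeq2, under the replicate block and without knockout replicate 2. With limma-voom no BMP ligand was called lower.

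Among ligands that missed the threshold, Bmp6, which is known for controlling iron through hepcidin, came close on the high side. It was at 6.28 and 8.66 CPM in controls and 21.5 and 12.9 CPM in the libraries labelled knockout (1.20 ± 0.32, adjusted p by edgeR = 0.0531). On the low side Gdf15, a stress-induced ligand, was at 9.28 and 4.39 CPM in controls and 2.61 and 2.4 CPM in the others (−1.45 ± 0.42, adjusted p by edgeR = 0.0659). Gdf3 was at 10.3 and 9.83 CPM against 3.69 and 6.13 CPM (−1.03 ± 0.30, adjusted p by edgeR = 0.0666). DESeq2 called all 3. Bmp6 was also called without scaling beyond the library total and without knockout replicate 2, Gdf15 without control replicate 2 or knockout replicate 1, and Gdf3 without knockout replicate 2. These genes were picked after their values were seen. Bmp7 overlapped between groups, at 10.1 and 5.61 CPM in controls and 6.23 and 4.62 CPM under the knockout label. Gdf10, the GDF with the highest level per kilobase (16.9 CPM), was at 103 and 87.3 CPM in controls and 98.4 and 64.8 CPM in the others (adjusted p by edgeR = 0.512). The remaining tested ligands Bmp3, Bmp5, Gdf6, Gdf9 and Gdf11 had adjusted p values by edgeR from 0.143 to 0.803.

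Type I receptors, which carry the kinase that phosphorylates Smads, held 3 lower calls and 1 higher among 6 (9.95% and 12.1% over all genes). Tgfbr1, the type I receptor of TGF-beta (chromosome 4, 47353222 to 47414931), was at 261 and 291 CPM in controls and 136 and 129 CPM in the libraries labelled knockout. In controls its mean was 2.09 times that level (−1.06 ± 0.12, adjusted p by edgeR = 0.00727). Acvr1, a type I receptor for several BMPs, was at 62.6 and 79.7 CPM in controls and 38.4 and 37.7 CPM in the others (−0.90 ± 0.14, adjusted p by edgeR = 0.0158). Per 100 CPM of fibroblast markers Acvr1 was at 1.37 and 1.51 in controls against 0.963 and 1.19. Per 100 CPM of duct markers it was higher under the knockout label, at 2.08 and 3.23 against 5.02 and 4.61. Its groups overlapped on the macrophage, smooth muscle and mesothelium bases. Bmpr1a was at 112 and 138 CPM in controls and 88 and 78.6 CPM under the knockout label, the smallest called change of the members (−0.58 ± 0.14, adjusted p by edgeR = 0.0421). The Bmpr1a call was lost under 5 of the 10 alternatives, with adjusted p values by edgeR up to 0.154. Acvr1b, the main activin type I receptor, was at 78.2 and 82.8 CPM in controls and 69.5 and 75.5 CPM in the others (−0.15, 95% interval −0.40 to 0.10). Bmpr1b stayed under 3 CPM in every library.

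Acvr1c had the largest called change of any member. The gene (chromosome 2, 58267453 to 58357895) encodes ALK7, a type I receptor for activin B and related ligands that is known from fat and islets. It was at 2.82 and 9.71 CPM in controls and at 67 and 47.2 CPM in the libraries labelled knockout, so the group means differed 9.12-fold (3.18 ± 0.58, adjusted p by edgeR = 0.0217). Without control replicate 2, the library where Acvr1c was the higher of the controls, the log2 fold change was 4.34; without control replicate 1 it was 2.56 (adjusted p by edgeR = 0.0252 and 0.0463). Adipocyte markers moved in the same direction: their sum was 396, 831, 3691 and 2830 CPM in control replicates 1 and 2 and knockout replicates 1 and 2, 7 of 8 were higher, and none was at 0. Relative to 100 CPM of these markers, Acvr1c was at 0.712 and 1.17 in controls and at 1.82 and 1.67 in the libraries labelled knockout. The ratio to this sum was thus higher under the knockout label too, by less than the CPM. Within the list, group means rose 3.34-fold for Pnpla2, 4.37-fold for Fabp4, 8.6-fold for Cidec and 9.67-fold for Plin1, against 9.12-fold for Acvr1c. The mean of Lep rose 27.9-fold, but Lep was uneven under the knockout label, at 100 and 6.44 CPM, and was not called. The ratio therefore depends on which markers are summed, and a rise of Acvr1c beyond that of fat markers was not tested. Islet markers, which summed to 1042 to 1819 CPM in controls and 149 to 447 CPM in the others, moved the opposite way.

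**Figure D4:**
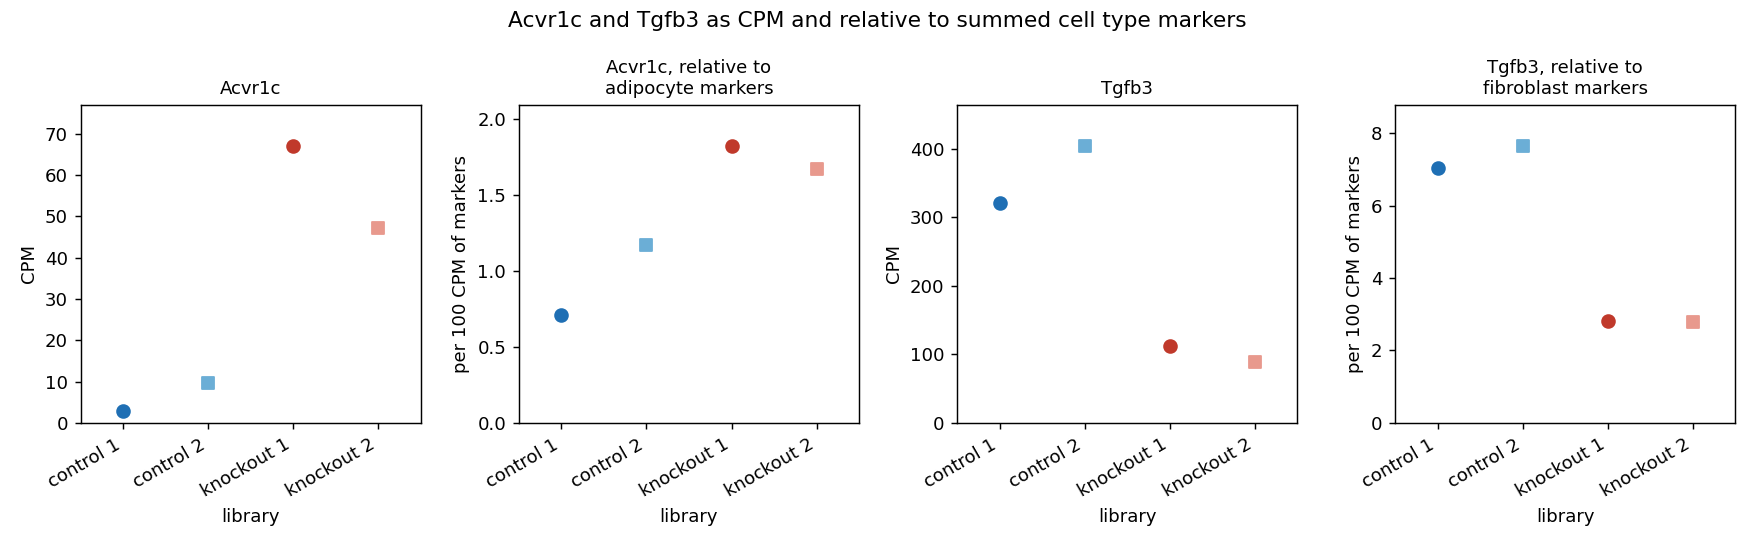
Acvr1c and Tgfb3 in each library, as CPM and per 100 CPM of the summed markers of a cell type, with axes from 0. Acvr1c ranges from 2.82 to 67 CPM but from 0.712 to 1.82 per 100 CPM of adipocyte markers, whereas Tgfb3 falls on both scales, from 7.04 and 7.64 to 2.81 and 2.78 per 100 CPM of fibroblast markers.

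Type II receptors, which bind ligand and activate the type I kinase, gave no call among 4 (22.1% over all genes). Tgfbr2, the TGF-beta type II receptor, was at 580 and 725 CPM in controls and 515 and 476 CPM in the libraries labelled knockout (−0.40 ± 0.16, 95% interval −0.81 to 0.02, adjusted p by edgeR = 0.142). Both of the latter lay below both controls, and the interval reaches past 0. Bmpr2 was at 158 and 193 CPM in controls and 157 and 145 CPM in the others (−0.21, 95% interval −0.56 to 0.14). Acvr2a was at 29.4 and 38.3 CPM in controls and 30.4 and 32.3 CPM under the knockout label, with overlapping groups. Acvr2b, near 5 CPM in mean (5.18 and 5.08 CPM), overlapped as well. For these 4 genes 0 calls were made by edgeR, DESeq2 and limma-voom alike, and 0 had an unadjusted edgeR p under 0.05.

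The co-receptor Tgfbr3, or betaglycan, presents TGF-beta to its receptors, in particular the Tgfb2 product, and also binds inhibin. It was at 89.2 and 118 CPM in controls and at 220 and 169 CPM in the libraries labelled knockout (0.91 ± 0.20, adjusted p by edgeR = 0.0331). It thus rose while Tgfbr1, Tgfb2 and Inha fell. Tgfbr3 no longer passed once control replicate 1 (adjusted p by edgeR = 0.126) or control replicate 2 (0.055) was removed. Blood endothelial markers summed to 547 to 711 CPM in controls and 884 to 897 CPM in the others, with 3 of 7 higher and none at 0. Per 100 CPM of them, Tgfbr3 was at 16.3 and 16.6 in controls and at 24.5 and 19.1 under the knockout label. On the same scale Bmp2 was at 1.26 and 1.02 against 1.62 and 1.65, and Bmp4 at 1.69 and 1.28 against 1.87 and 1.75. On the endothelial base these ratios were higher in the libraries labelled knockout, by smaller factors than the CPM. On the adipocyte base all 3 were lower there: Tgfbr3 was at 22.5 and 14.2 against 5.96 and 5.97, Bmp2 at 1.74 and 0.871 against 0.393 and 0.516, and Bmp4 at 2.33 and 1.09 against 0.455 and 0.548. They were also lower per lymphocyte marker. All 3 were higher per acinar, duct, islet, fibroblast, smooth muscle, macrophage or mesothelium marker, so the direction depends on the base.

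Smads carry the signal of these receptors, except Smad6 and Smad7, which inhibit it. The 8 Smads gave 0 calls by edgeR, DESeq2 and limma-voom, and 0 had an unadjusted edgeR p under 0.05. Over all genes tested, 22.1% were called by edgeR. Smad4, the shared partner, was at 91.1 and 95.3 CPM in controls and at 87.9 and 94.5 CPM in the libraries labelled knockout (−0.03, 95% interval −0.27 to 0.21). Smad2 was at 58.2 and 65.5 CPM in controls and 67.4 and 67.5 CPM in the others (0.13, 95% interval −0.14 to 0.39). Smad3 was at 77.2 and 88.9 CPM and at 77.6 and 75.4 CPM (−0.12, 95% interval −0.39 to 0.15). The TGF-beta and activin Smads thus showed no difference beyond the replicate spread, with intervals that leave room for small changes.

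Among BMP Smads, Smad1 was at 54.3 and 53.9 CPM in controls and 45.5 and 51 CPM under the knockout label (−0.16, 95% interval −0.44 to 0.11). Smad5 was at 108 and 136 CPM in controls and 125 and 115 CPM in the others (−0.03, 95% interval −0.39 to 0.34). Smad9 was low, at 4.32 to 7.86 CPM over the 4 libraries, and had the widest interval, from −1.32 to 0.46. The inhibitory Smad7, itself a direct target of the pathway, was at 32.5 and 33.6 CPM in controls and 32.5 and 30.4 CPM in the libraries labelled knockout (−0.07, 95% interval −0.37 to 0.22). Smad6 was at 12.3 and 13.1 CPM and at 12.6 and 9.76 CPM. The adjusted p values by edgeR of the 8 Smads ran from 0.318 to 0.917, and the signs of Smad4, Smad5 and Smad7 turned positive without scaling beyond the library total.

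The called falls of Tgfb3 and Bmp1 were also present relative to fibroblast markers, whose sum differed less between groups. Per 100 CPM of these markers, Tgfb3 was at 7.04 and 7.64 in controls and at 2.81 and 2.78 in the libraries labelled knockout. On that scale Bmp1 was at 13.3 and 13.6 in controls and 5.47 and 6.08 in the others, and Tgfb2 at 1.31 and 0.974 against 0.542 and 0.608. Tgfbr1 was at 5.72 and 5.5 against 3.41 and 4.06, and per 100 CPM of macrophage markers at 5.91 and 7.47 against 4.97 and 5.01. Per 100 CPM of duct markers Tgfbr1 was higher under the knockout label, at 8.68 and 11.8 against 17.8 and 15.8. It was also higher on the acinar and islet bases, overlapped on the smooth muscle and mesothelium bases, and was lower on the others. Bmpr1a overlapped between groups per 100 CPM of fibroblast markers, at 2.45 and 2.61 against 2.21 and 2.47. Relative to duct markers, which fell more, Tgfb3 (10.7 and 16.4 against 14.6 and 10.8) and Bmp1 (20.2 and 29.1 against 28.5 and 23.6) overlapped, and Tgfb2 was higher under the knockout label, at 1.99 and 2.09 against 2.82 and 2.36. The fibroblast list was itself split. Group means of Dcn, the largest part of its sum, differed 1.09-fold, whereas Lum and Col6a3 fell 2.44-fold. That is more than the 2.09-fold fall of Tgfbr1 and less than the 3.62-fold and 3.23-fold falls of Tgfb3 and Bmp1. The ratios thus depend on the cell type and markers taken as the base, and no base is known to be the source of these transcripts here.

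Other genes of the pathway, 78 by list of which 70 were tested, were lower in 21 cases and higher in 2, or 30% and 2.86% of those tested (9.95% and 12.1% over all genes; median −0.37). Storage and activation of latent TGF-beta had 6 of 10 lower and 0 higher, with a median of −0.98. Without control replicate 2 the lower calls were 3, Itgav, Thbs1 and Lrrc32 being lost. Fbn2, a microfibril protein to which latent complexes bind, was at 220 and 279 CPM in controls and at 48.3 and 57.5 CPM in the libraries labelled knockout (−2.24 ± 0.17, adjusted p by edgeR = 0.00331). Itgb6, the epithelial integrin subunit that releases active TGF-beta, was at 31.5 and 32.8 CPM in controls and at 11.2 CPM in both of the others (−1.52 ± 0.13, adjusted p by edgeR = 0.00409). Both genes had groups far apart. Duct markers, which are epithelial, fell as well, with sums of 3007 and 2467 CPM in controls and 766 and 818 CPM in the others. Whether Itgb6 fell relative to them was not tested.

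**Figure D5:**
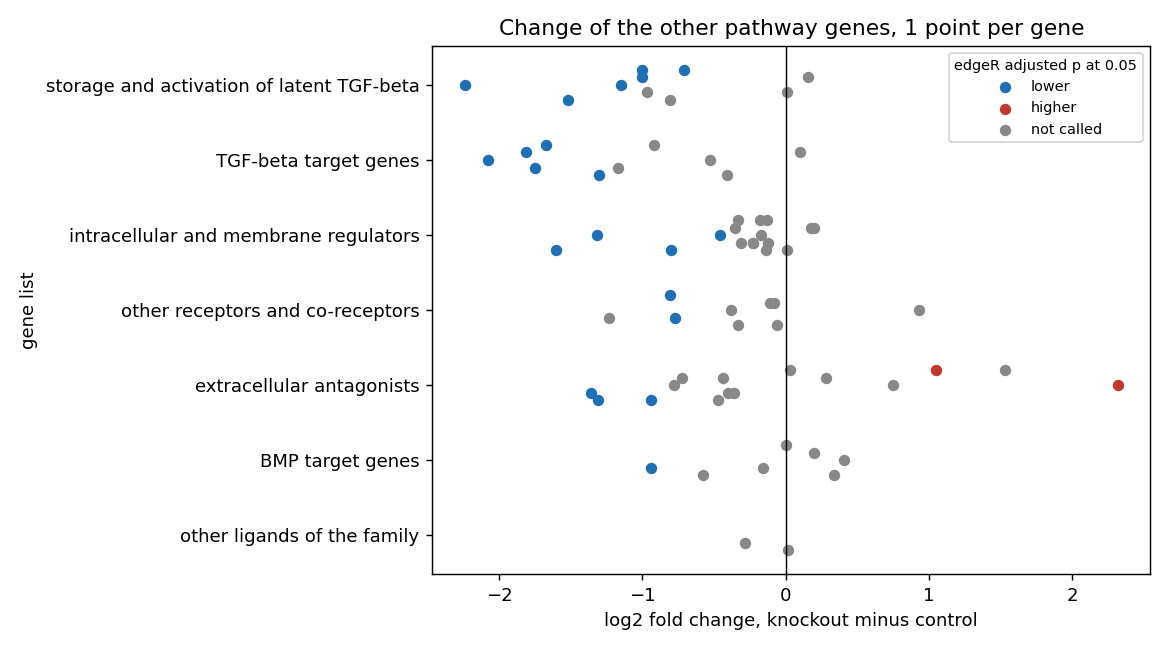
Log2 fold change, knockout label minus control, of the 70 tested pathway genes that are not members, by list and with 1 point per gene (vertical offsets only separate points). Blue points were called lower and red higher; the 6 lower calls of the storage and activation list and the 5 of the TGF-beta target list lie between −2.24 and −0.71, while the BMP target genes scatter around 0.

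TGF-beta target genes fell in 5 of 10 cases and rose in 0 (9.95% and 12.1% over all genes), with a median of −1.23. Without control replicate 1 or control replicate 2 the lower calls were 3, Lox and Timp1 being lost, and without knockout replicate 1 they were 8. Postn, the matrix protein periostin, was at 1797 and 1728 CPM in controls and 527 and 520 CPM under the knockout label (−1.75 ± 0.14, adjusted p by edgeR = 0.00373). Col1a1, a chain of type I collagen, was at 6999 and 7806 CPM in controls and 1935 and 1572 CPM in the others (−2.08 ± 0.20, adjusted p by edgeR = 0.00556). Many genes of the list are also typical of fibroblasts and smooth muscle.

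BMP target genes gave 1 lower call among 7 tested (9.95% over all genes), the homeobox gene Msx1, with a list median of 0.00. Msx1 was at 10.9 and 12.8 CPM in controls and 5.95 and 6.4 CPM in the libraries labelled knockout (−0.94 ± 0.20, adjusted p by edgeR = 0.0304), a call lost without either control or without knockout replicate 1 (adjusted p by edgeR from 0.0667 to 0.0932). The inhibitor of differentiation genes, classic BMP targets, were not called. Id1 was at 23.4 and 23.6 CPM in controls and 33.3 and 29 CPM in the others (0.41 ± 0.13, adjusted p by edgeR = 0.086), and was called higher without scaling beyond the library total. Id3 was at 77 and 78.9 CPM in controls and 84.9 and 70.8 CPM under the knockout label. Id1 and Id3 fall outside the rule for named genes and were chosen after their values were seen.

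Regulators inside the cell and at its membrane had 4 of 17 lower and 0 higher (9.95% and 12.1% over all genes). Of these, Ski and Bambi lost their calls without scaling beyond the library total, without the low-count filter, under the replicate block and with any 1 library left out. Pmepa1, a TGF-beta-induced inhibitor of Smad activation, was at 293 and 303 CPM in controls and 107 and 89.8 CPM in the libraries labelled knockout (−1.60 ± 0.13, adjusted p by edgeR = 0.00398). Tgif1, a repressor that binds Smads, was at 129 and 105 CPM in controls and 46.6 and 47.1 CPM in the others (−1.32 ± 0.13, adjusted p by edgeR = 0.00553). Of the other receptors and co-receptors, 2 of 9 were lower, against 9.95% over all genes. The BMP co-receptor Rgmb was at 79.2 and 82 CPM against 46.6 and 47.8 CPM (−0.77 ± 0.09, adjusted p by edgeR = 0.00801). Its receptor Neo1 was at 135 and 164 CPM against 88.6 and 81.3 CPM (−0.81 ± 0.13, adjusted p by edgeR = 0.0172). Other ligands of the family gave 0 calls by edgeR, DESeq2 and limma-voom among 2 tested, and 0 unadjusted edgeR p under 0.05.

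Extracellular antagonists trap ligands before they reach a receptor. Of 15 tested, 3 were lower and 2 higher, against 9.95% and 12.1% over all genes. Without control replicate 1 there were 1 lower and 1 higher. Nbl1, a BMP antagonist of the DAN family, was at 466 and 370 CPM in controls and 180 and 146 CPM in the libraries labelled knockout (−1.36 ± 0.18, adjusted p by edgeR = 0.0107; 0.052 without control replicate 1). Kcp, a chordin-like modulator, was at 18.7 and 20.9 CPM in controls and 8.24 and 7.67 CPM in the others (−1.31 ± 0.16, adjusted p by edgeR = 0.00905). The genes that rose, named here because they were 2, were Chrdl1 and Crim1. The BMP antagonist Chrdl1 was at 11.1 and 21.8 CPM in controls and at 87.8 and 76 CPM in the libraries labelled knockout (2.32 ± 0.33, adjusted p by edgeR = 0.0124). Crim1, a membrane protein that binds BMPs, was at 36.6 and 59.5 CPM against 108 and 91.1 CPM (1.05 ± 0.25, adjusted p by edgeR = 0.0399), a call lost without control replicate 1.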

How the data were processed

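The authors deposited 1 table per library with raw integer counts for each gene symbol, per the file headers. The submitters' processing notes name GRCm38, STAR 2.7.6a, featureCounts 2.0.1, SAMtools 1.7, Trim Galore 0.6.6 and FastQC 0.11.9. Annotation release, strandedness and the handling of multi-mapping reads were not given in the sources used here, so reads of overlapping genes cannot be told apart; exons of called members shared at most 7.6% of their bases with any other gene. Groups and replicate numbers came from the sample titles.

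All genes were fitted together with edgeR 4.0.16 in R 4.3.3: filterByExpr (19134 genes), TMM, quasi-likelihood F tests on group alone, and Benjamini-Hochberg adjusted p under 0.05 as a call. CPM use the TMM-scaled totals of tested genes, ± is SE for log2 fold changes, and n = 2 libraries per group throughout. Lengths and positions are from GENCODE M21. Alternatives were other scalings, no filter, DESeq2 1.42.0, limma-voom (limma 3.58.1), a replicate block and leaving out each library. The edgeR step was tested on simulated data. Replicates were not copies of each other (chi-square per degree of freedom 46.2 and 32.5). Members and lists were chosen with earlier results of these data known. Values in every library are given for members called with at least 1 CPM or with a mean of at least 20 CPM. Of each other pathway list, the 2 called genes with the smallest p are named, or all where at most 3 were called. The values of 1 gene of the TGF-beta target list are not reported here.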

Additional observations from a re-analysis of the deposited data

How the results depend on the processing

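The member calls were 9 lower and 4 higher with DESeq2 size factors in edgeR, without a low-count filter and with limma-voom, the same genes each time; DESeq2 called 13 and 5. Without scaling beyond the library total they were 8 and 5, other pathway genes had 4 higher against 2, and the log2 fold changes of Smad4, Smad5 and Smad7 were 0.07, 0.07 and 0.03. Replicate numbers are shared by the groups, but the deviations of same-numbered libraries correlated at only 0.03 across genes, so they give no pairing; with the number as a replicate block, 9 members were lower, 7 of them shared with the fit without it, 4 were higher, and 1432 genes in all were lower and 1960 higher. Leaving out each library in turn gave 7 to 12 members lower and 1 to 6 higher, 13 to 24 other pathway genes lower and 1 to 3 higher, and 424 to 1696 of all genes lower and 702 to 2338 higher. The lowest numbers of all genes came without control replicate 1, and 1 member, Acvr1c, was higher without either control library. Fewer samples leave fewer degrees of freedom, and the spread of a lone library is taken from the other group. Tgfb2, Tgfb3, Bmp1, Tgfbi, Tgfbr1, Acvr1 and Acvr1c were called under all 10 alternatives. Signs changed with a library left out for genes that were not called: Ltbp4 ranged from −0.08 to 0.53, Ltbp1 from −0.11 to 0.39, Smad4 from −0.08 to 0.02, Smad5 from −0.18 to 0.15, Acvr2a from −0.29 to 0.09 and Gdf10 from −0.56 to 0.05. With 2 libraries per group, members under about 10 CPM have wide intervals, and a difference there may be undetectable.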
